A study of Mus musculus with 2 samples.

Results

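Hbegf, Areg, Ereg, Tgfa and Egfr, a receptor of the epidermal growth factor family and 4 of its ligands, were followed through the cells of MC38 tumours from mice treated with LC427 or with vehicle. These 5 genes were matched by symbol among the 32285 genes of the count matrices. They were proposed for a closer description after the Hbegf levels of these same libraries in macrophage-like and CD8-like cells were known, so the values below describe the libraries and test nothing. MC38 is a mouse colon carcinoma line, grown here in C57BL/6 female mice. The LC427 group was 1 droplet library of CD45-selected tumour cells from LC427 treated mice, and the vehicle group was 1 such library from vehicle treated mice. Both went through the same enzymatic digestion, dead cell removal and bead selection, and were made with 5′ chemistry, which counts unique molecular identifiers (UMIs) at the start of a transcript. The labels describe neither the agent LC427 nor its dose and schedule, and give no number of mice for a library. With 1 library per group no difference between the groups has a replicate check, and no p-value is given. Intervals are 95% and exact, Poisson for a level, binomial for a share and conditional binomial for a ratio. They cover counting error only, and are too narrow in that UMIs of 1 cell are not independent.

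All of these ligands are made as membrane-anchored precursors, which metalloproteases of the ADAM family cut to release the soluble factor. The released ligands bind EGFR, a receptor tyrosine kinase that signals through Ras and the ERK kinases, and HB-EGF and epiregulin also bind ERBB4. HB-EGF, encoded by Hbegf, binds heparan sulfate and is a product of activated macrophages and of many epithelial and tumour cells. Amphiregulin, encoded by Areg, is known as a tissue repair factor of regulatory T cells and type 2 lymphocytes. Epiregulin (Ereg) and TGFα (Tgfa) are ligands mostly of epithelial and stromal sources.

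The libraries held 28732435 UMIs with LC427 and 33711726 with vehicle, and 6008 LC427 and 5025 vehicle cells were used, with a median of 2356 UMIs per LC427 cell and 3494 UMIs per vehicle cell. They fell into 20 clusters and 13 classes, of which the monocyte/macrophage-like class was the largest, with 3993 LC427 and 3370 vehicle cells. Despite the CD45 selection, the CD45 gene Ptprc was seen in 57.6% of LC427 and 63.8% of vehicle cells, and 367 LC427 and 174 vehicle cells formed a cluster with Ptprc in 5.73% of cells. That cluster was called tumour-like because Tm4sf1 and Sox9, and no fibroblast marker, were among its 10 leading genes, but the full marker lists go against the name. The mean log2 ratio to the median cluster was 2.72 for the fibroblast markers and 1.72 for the tumour markers. In 3 other settings no cluster was named tumour-like, and the fibroblast-like class was larger: 221 LC427 and 135 vehicle cells at a minimum of 2000 UMIs, 242 LC427 and 141 vehicle cells at a finer clustering, and 251 LC427 and 207 vehicle cells with each library clustered alone. The name is therefore a working one, and tumour cells and fibroblasts are not told apart by it. The sum of the fibroblast markers was 1145 CPM (UMIs of a gene per 1000000 UMIs of the class in that library) in LC427 and 1350 CPM in vehicle tumour-like cells, against 27950 CPM in the 12 LC427 and 25851 CPM in the 32 vehicle fibroblast-like cells. The keratin genes Krt18 and Krt19 were at 0 in the tumour-like cells of both libraries. A total of 46 cell barcodes occurred in both libraries.

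RefSeq promoter windows of GRCm38.p6 were found for 3 of the 5 genes, Areg, Tgfa and Egfr. The Areg window is shown because Areg had at least 20 UMIs in 9 of the 13 cell classes, the most of the group. It runs from 250 bases before to 50 bases after the gene start at chr5:91139349-91139648 on the plus strand, and capitals mark the cyclic AMP response element, TGACGTCA, which reads the same on both strands:
Areg promoter: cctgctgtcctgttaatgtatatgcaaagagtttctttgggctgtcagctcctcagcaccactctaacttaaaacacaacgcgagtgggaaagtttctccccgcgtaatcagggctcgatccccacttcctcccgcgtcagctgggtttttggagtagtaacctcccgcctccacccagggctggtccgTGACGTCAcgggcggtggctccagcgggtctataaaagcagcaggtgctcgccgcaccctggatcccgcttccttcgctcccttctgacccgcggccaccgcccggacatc
The element starts 61 bases before the gene start. It was found in 588 of 32851 RefSeq windows of this length (1.79%), and in neither the Tgfa nor the Egfr window. Its letters describe the window and say nothing of what binds there.

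In the GRCm38 annotation Hbegf (ENSMUSG00000024486) lies on chromosome 18 at 36504927 to 36515805, minus strand, and Egfr (ENSMUSG00000020122) on chromosome 11 at 16752203 to 16918158, plus strand. Tgfa (ENSMUSG00000029999) lies on chromosome 6 at 86195223 to 86275719, plus strand. Ereg (ENSMUSG00000029377) at 91074622 to 91093646 and Areg (ENSMUSG00000029378) at 91139599 to 91148432 are neighbours on the plus strand of chromosome 5, with 45952 bases between them. All are protein-coding.

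Hbegf had 654 UMIs in 6008 LC427 cells and 1415 UMIs in 5025 vehicle cells, or 30.9 CPM (28.5 to 33.3) with LC427 and 55.7 CPM (52.8 to 58.6) with vehicle. The ratio of LC427 to vehicle was 0.554 (0.505 to 0.609), where 7.79% of the 13842 genes measured were at least 1.5-fold lower in LC427. The sources behind these totals differed. Monocyte/macrophage-like cells held 13.8% of the Hbegf UMIs of LC427 cells (11.2 to 16.6), against 62.3% of those of vehicle cells (59.7 to 64.8). Tumour-like cells held 77.8% in the LC427 library (74.4 to 81.0), against 29.5% in the vehicle library (27.2 to 32.0). The macrophage-like class was close to the same share of cells in both, 66.5% of LC427 and 67.1% of vehicle cells, and the tumour-like class was 6.11% of LC427 and 3.46% of vehicle cells. Tumour-like cells held 21.6% of all LC427 UMIs and 15.3% of all vehicle UMIs, and macrophage-like cells 54.5% and 59.8%. The CD45 selection can set the number of tumour-like cells, and with it these shares and the ratio over all cells. Its part was not tested.

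**Figure D1:**
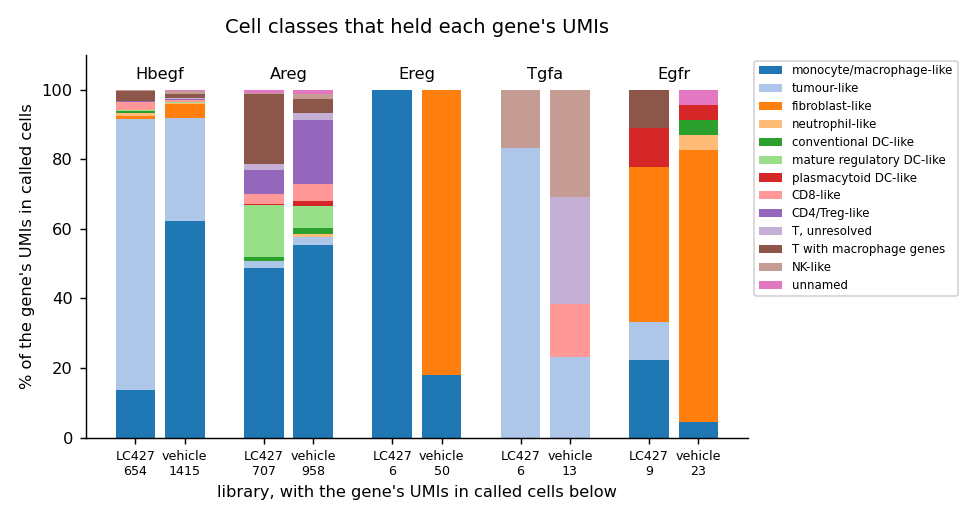
Share of the UMIs of each gene held by each cell class (y axis, percent of the gene's UMIs in called cells), 1 bar per library with LC427 left of vehicle and the gene's UMI total under the bar. Hbegf was mostly in tumour-like cells with LC427 (77.8%) and mostly in monocyte/macrophage-like cells with vehicle (62.3%), and the bars of Ereg, Tgfa and Egfr rest on 6 to 50 UMIs.

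Within monocyte/macrophage-like cells Hbegf was at 7.79 CPM (6.26 to 9.57) with LC427 and 57.9 CPM (54.2 to 61.9) with vehicle. These are 90 UMIs in 3993 LC427 cells and 881 UMIs in 3370 vehicle cells. The ratio was 0.134 (0.107 to 0.167), the 13th lowest of the 11537 genes measured in these cells, of which 6.28% were at least 1.5-fold lower in LC427. The median gene of the class had a log2 ratio of 0.13, and Hbegf had one of -2.90. At full depth the difference lay both in how many cells carried Hbegf and in how many UMIs those cells had. Of LC427 cells 1.73% (1.35 to 2.18) had a Hbegf UMI, against 11.1% (10.1 to 12.2) of vehicle cells. Of those cells, 2 in LC427 and 105 in vehicle had 3 or more Hbegf UMIs, and the highest single cell had 8 UMIs with LC427 and 15 with vehicle. Macrophage-like cells had a median of 2283 UMIs with LC427 and 3660.5 with vehicle. Thinned to 1000 UMIs each, 0.701% of LC427 and 3.89% of vehicle cells had a Hbegf UMI. These were 37 UMIs in 28 LC427 cells and 176 UMIs in 131 vehicle cells. Thinning to this depth leaves few Hbegf UMIs in any cell, so it cannot compare the UMIs per carrying cell. The share of carrying cells differed at this depth too.

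Free RNA was read from empty droplets. Droplets with 10 to 100 UMIs, taken as empty, held Hbegf at 10.1 CPM (6.80 to 14.4) in the LC427 library and 14.6 CPM (11 to 19.1) in the vehicle library. NK-like cells, taken here as a class at the low end, had medians of 1629 UMIs with LC427 and 2542 with vehicle, and carried a Hbegf UMI in 1.29% of LC427 (0.157 to 4.58) and 1.97% of vehicle cells (0.794 to 4.01). The LC427 macrophage-like share of 1.73% lay within the NK-like interval, and the vehicle share of 11.1% above it. The LC427 NK-like interval rests on 2 of 155 cells, and NK-like cells were shallower in both libraries. Lying within it therefore does not place the LC427 class at the level of free RNA. Clusters of LC427 macrophage-like cells lay on both sides of 1.73%, with 4.13% (2.58 to 6.25) in the Cxcl3 cluster (cluster 3) and 0.621% (0.0753 to 2.23) in the cycling cluster (cluster 6), where the level was 1.30 CPM. Cells can thus lie well below the empty droplet level, and the part of free RNA in the LC427 level of the class was not tested. The sum of the 14 monocyte/macrophage markers in these cells, all seen in both libraries, was 11993 CPM with LC427 and 16628 CPM with vehicle.

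Hbegf was lower in LC427 in 8 of the 9 monocyte/macrophage clusters, 7 of them with an interval of the ratio under 1 and 1 by a bound. Among all measured genes the share at least 1.5-fold lower in LC427 was 5.55% in cluster 0, 6.14% in cluster 1, 7.01% in cluster 2, 7.58% in cluster 3 and 9.55% in cluster 4. It was 8.11% in cluster 6, 13.8% in cluster 10, 10.9% in cluster 14 and 14.4% in cluster 16. Cluster 3, led by Cxcl3, Mmp12, Spp1 and the hypoxia gene Hilpda, had 14.9 CPM (9.52 to 22.1) with LC427 and 100.2 CPM (89.5 to 112) with vehicle, a ratio of 0.148 (0.0936 to 0.225). None of its 508 LC427 cells had 3 or more Hbegf UMIs, and 42 of its 609 vehicle cells did. Cluster 4, led by Cbr2, Ccl8 and Folr2, genes of resident-type macrophages, had 7.63 CPM with LC427 and 63.5 CPM with vehicle. Cluster 1, led by the monocyte chemokine receptor gene Ccr2, had 6.51 CPM with LC427 and 57.6 CPM with vehicle. Cluster 0, led by Ms4a7 and Cx3cr1, had 4.95 CPM with LC427 and 27.2 CPM with vehicle, and cluster 2, led by Ly6i and Nos2, had 8.0 CPM with LC427 and 26.1 CPM with vehicle. The cycling cluster 6 had 2 UMIs in 322 LC427 cells and 117 UMIs in 364 vehicle cells, a ratio of 0.0293.

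The other 3 clusters were smaller. Cluster 14, led by the interferon-induced genes Rsad2 and Ifit2, had 19.0 CPM (7.65 to 39.2) with LC427 and 63.2 CPM (40.1 to 94.8) with vehicle. Cluster 16, led by Neat1 and Mrc1, had no Hbegf UMI in 64 LC427 cells, which allows a share of up to 4.69% of cells with a UMI, and 10 UMIs in 54 vehicle cells. The ratio there was at most 0.323, from a limit of 3 counts. Cluster 10, led by Plac8, Ly6c2 and Vcan, genes of newly arrived monocytes, was the exception. It had 7 UMIs in 236 LC427 cells and 6 UMIs in 140 vehicle cells, or 17.4 CPM (7.0 to 35.8) with LC427 and 17.2 CPM (6.30 to 37.4) with vehicle. The ratio was 1.01 (0.292 to 3.65), an interval that covers both directions, so no difference was detectable at this depth.

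**Figure D2:**
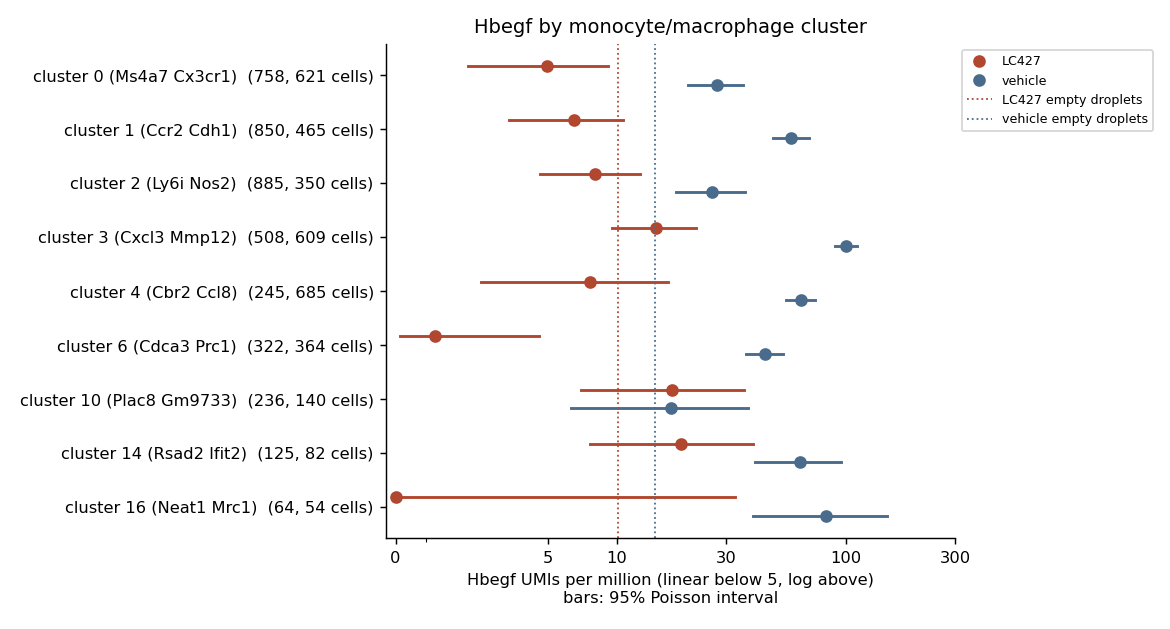
Hbegf in each monocyte/macrophage cluster in CPM (x axis, linear below 5 and logarithmic above), with LC427 above vehicle, bars for the exact 95% Poisson interval and dotted lines for the empty droplets of each library. The LC427 points lie between 0 and 19.0 CPM, around the empty droplet lines. The vehicle points lie to the right of the LC427 points in every cluster except cluster 10.

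In tumour-like cells the levels of the libraries overlapped. Hbegf was at 111 CPM (102 to 121) with LC427 and 107 CPM (97.1 to 118) with vehicle, a ratio of 1.04 (0.909 to 1.18). The 509 UMIs of LC427 cells were spread over 181 of 367 cells, and the 418 UMIs of vehicle cells over 111 of 174 cells. The cells with vehicle were deeper, with a median of 21175.5 UMIs against 10952 UMIs with LC427. A Hbegf UMI was seen in 49.3% of LC427 cells (44.1 to 54.6) and 63.8% of vehicle cells (56.2 to 70.9) at full depth. Thinned to 1000 UMIs, 8.17% of LC427 cells (5.58 to 11.5) and 6.90% of vehicle cells (3.61 to 11.7) had one. With classes taken from each cell's own markers, 88 LC427 and 21 vehicle cells counted as tumour-like, and the ratio was 0.504 (0.381 to 0.670). With tumour-like and fibroblast-like cells joined it was 0.996 (0.878 to 1.13). Fibroblast-like cells had 6 UMIs in 12 LC427 cells and 57 UMIs in 32 vehicle cells, or 79.6 CPM (29.2 to 173) with LC427 and 151 CPM (114 to 196) with vehicle. Of the 57 vehicle UMIs, 25 were in cells that carried an endothelial marker (Pecam1, Cdh5 or Kdr, the only ones looked at here), and 21 were in 1 cell.

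Among the other classes Hbegf was at 0 to 37.9 CPM with LC427 and 1.79 to 27.0 CPM with vehicle. CD8-like T cells had 15.3 CPM (8.35 to 25.6) with LC427 and 5.38 CPM (2.16 to 11.1) with vehicle, from 14 UMIs in 412 LC427 cells and 7 UMIs in 288 vehicle cells. The ratio was 2.84 (1.07 to 8.31), where 13.4% of measured genes were at least 1.5-fold higher in LC427, and empty droplets were at 10.1 CPM with LC427 and 14.6 CPM with vehicle. A T sub-cluster that also carried macrophage genes, with Csf1r in 46.8% of its cells, had 10.7 CPM with LC427 and 27.0 CPM with vehicle. Its ratio was 0.399 (0.194 to 0.823), where 9.97% of measured genes were at least 1.5-fold lower. Neutrophil-like cells had 5 UMIs in 40 LC427 cells and 4 UMIs in 39 vehicle cells. That class was led by the osteoclast genes Ctsk and Acp5 as well as by S100a8 and S100a9.

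**Figure D3:**
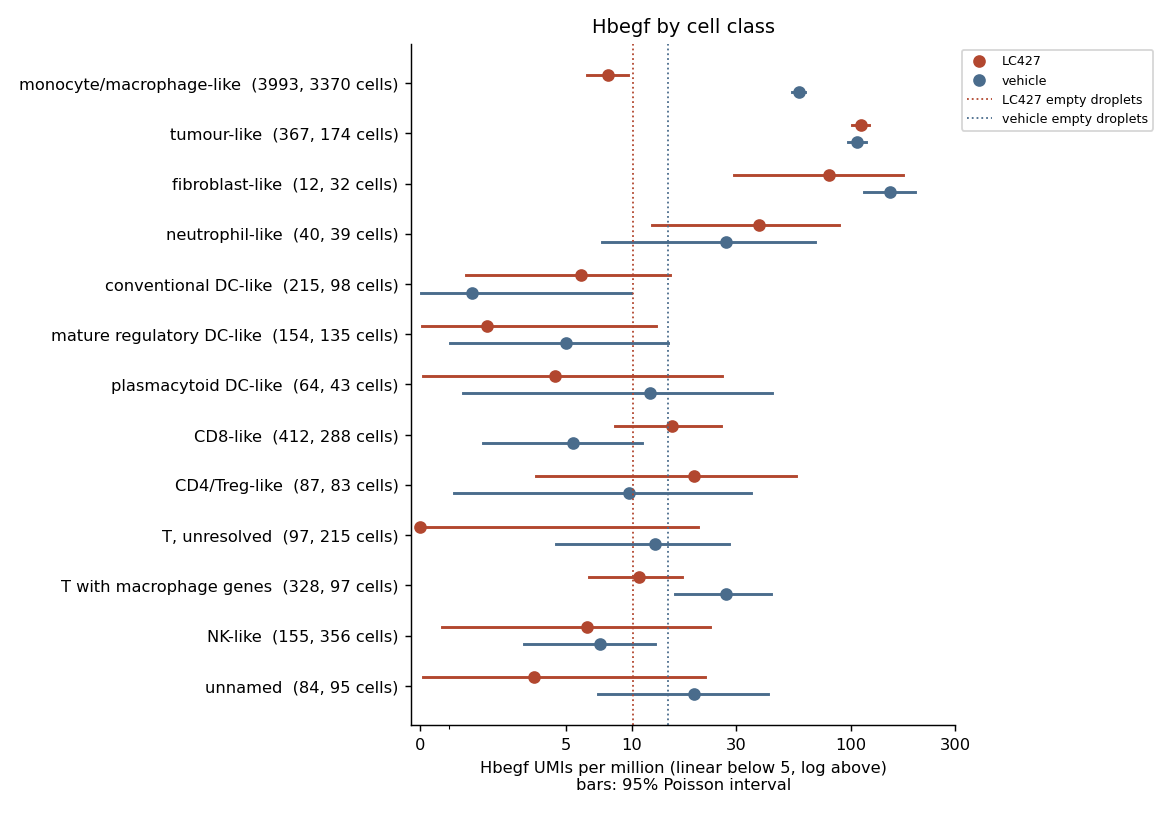
Hbegf in each cell class in CPM (x axis, linear below 5 and logarithmic above), with LC427 above vehicle, bars for the exact 95% Poisson interval and dotted lines for the empty droplets of each library. Monocyte/macrophage-like cells are apart (7.79 CPM with LC427 and 57.9 CPM with vehicle), while tumour-like cells overlap at 111 CPM with LC427 and 107 CPM with vehicle.

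The authors' deposited table, made with their own clusters, gave Hbegf as a mean count per cluster, shown here as CPM of the cluster's total. In the authors' deposited table, LC427 cluster 8 had 105 CPM and the other 10 LC427 clusters lay between 3.23 and 14.4 CPM. That cluster also had the highest Tm4sf1 of the library, 554 CPM in the authors' deposited table. The 13 vehicle clusters of the authors' deposited table lay between 5.54 and 105 CPM, with a median of 42.7. The highest was vehicle cluster 10, which had the highest Tm4sf1 and Col1a1 there, and the next, cluster 13 at 89.4 CPM, had the highest Mmp12.

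Areg was at 33.4 CPM (31.0 to 35.9) in all LC427 cells and 37.7 CPM (35.3 to 40.2) in all vehicle cells, from 707 LC427 and 958 vehicle UMIs, a ratio of 0.885 (0.802 to 0.977). Few cells carried it, 204 LC427 and 196 vehicle cells, and many of them strongly: 85 LC427 and 97 vehicle cells had 3 or more UMIs. Unlike Hbegf, it came from many classes. Monocyte/macrophage-like cells held 48.7% of the LC427 and 55.3% of the vehicle UMIs, and tumour-like cells 2.12% of the LC427 and 2.19% of the vehicle UMIs. Barcodes with both T and macrophage genes held 20.2% of the LC427 UMIs, 143 of 707, and 3.97% of the vehicle UMIs, 38 of 958. That class was 5.46% of LC427 and 1.93% of vehicle cells. Cd3e was seen in 51.1% of its barcodes and Csf1r in 46.8%. It had 328 LC427 and 97 vehicle barcodes, against 470 LC427 and 215 vehicle barcodes with none left out as doublets. Whether they are doublets, and which of them carried Areg, was not tested. CD4/Treg-like T cells held 6.93% of the LC427 and 18.4% of the vehicle UMIs. In empty droplets Areg was at 16.1 CPM with LC427 and 14.4 CPM with vehicle. Tumour-like cells lay below this, at 3.28 CPM (1.83 to 5.40) with LC427 and 5.38 CPM (3.33 to 8.23) with vehicle, and 1.91% of LC427 and 2.30% of vehicle tumour-like cells had an Areg UMI.

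CD4/Treg-like T cells had the highest Areg level in both libraries. Their level was 314 CPM (232 to 415) with LC427 and 854 CPM (733 to 990) with vehicle, from 49 UMIs in 87 LC427 cells and 176 UMIs in 83 vehicle cells. The ratio was 0.367 (0.262 to 0.507), where 16.4% of the 3030 genes measured in these cells were at least 1.5-fold lower in LC427. Of LC427 cells 17.2% (9.98 to 26.8) had an Areg UMI, against 26.5% (17.4 to 37.3) of vehicle cells. The highest cell had 12 UMIs with LC427 and 44 with vehicle, and 5 LC427 and 15 vehicle cells had 3 or more. Depths were near, with a median of 1561 UMIs with LC427 and 1789 with vehicle. The CD4 and regulatory T markers summed to 4849 CPM with LC427 and 4285 CPM with vehicle, and the macrophage markers to 717 CPM with LC427 and 679 CPM with vehicle. The ratio was between 0.51 and 0.639 when the listed genes were kept in clustering, when cells were gated by their own markers, or at a minimum of 2000 UMIs, where 11 LC427 and 27 vehicle cells were left.

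Both sub-clusters of this class were lower in LC427. The one led by Foxp3, the master regulator of regulatory T cells, had 296 CPM (204 to 415) with LC427 and 721 CPM (586 to 879) with vehicle, a ratio of 0.410 (0.268 to 0.614), where 17.7% of its measured genes were at least 1.5-fold lower. The one led by the type 2 cytokine gene Il13 had 359 CPM (205 to 583) in 24 LC427 cells and 1111 CPM (878 to 1387) in 34 vehicle cells, a ratio of 0.323 (0.176 to 0.559), where 24.1% were. In CD8-like cells Areg was at 21.8 CPM (13.3 to 33.7) with LC427 and 36.2 CPM (26.6 to 48.1) with vehicle. Its sub-cluster led by the granzyme genes Gzmc and Gzmf had 19 UMIs in 254 LC427 cells and 28 UMIs in 165 vehicle cells, a ratio of 0.748 (0.395 to 1.39). The cycling CD8-like sub-cluster had 1 UMI in 158 LC427 cells and 19 UMIs in 123 vehicle cells, a ratio of 0.0926 (0.00223 to 0.583), where 13.9% of measured genes were at least 1.5-fold lower.

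Mature regulatory DC-like cells, the Ccr7-positive, migratory dendritic cells, went the other way. Areg was at 244 CPM (200 to 295) with LC427 and 100.5 CPM (76.7 to 129) with vehicle, from 106 UMIs in 154 LC427 cells and 60 UMIs in 135 vehicle cells. The ratio was 2.43 (1.76 to 3.40), where 17.0% of the 4878 measured genes were at least 1.5-fold higher in LC427. These UMIs came from 15 LC427 and 6 vehicle cells, with at most 23 UMIs in a cell of either library. The 8 T markers also differed here, at 454 CPM with LC427 and 164 CPM with vehicle. Among the 124 LC427 and 121 vehicle cells without a UMI of any T marker, Areg had 61 UMIs with LC427 and 60 with vehicle, and the ratio was 1.65 (1.14 to 2.40). The part of T cell RNA in the rest of the difference was not tested.

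Both other dendritic classes and the neutrophil-like class had lower Areg with LC427, where 10.9% of measured genes were at least 1.5-fold lower in conventional DC-like, 16.1% in plasmacytoid DC-like and 22.7% in neutrophil-like cells. Conventional DC-like cells had 11.7 CPM (5.05 to 23.0) with LC427 and 30.4 CPM (17.7 to 48.6) with vehicle, the vehicle UMIs in 3 cells. Plasmacytoid DC-like cells had 2 UMIs in 64 LC427 cells and 12 UMIs in 43 vehicle cells, a ratio of 0.127 (0.0138 to 0.569). Neutrophil-like cells had none in 40 LC427 cells and 9 UMIs, all in 1 cell, with vehicle.

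**Figure D4:**
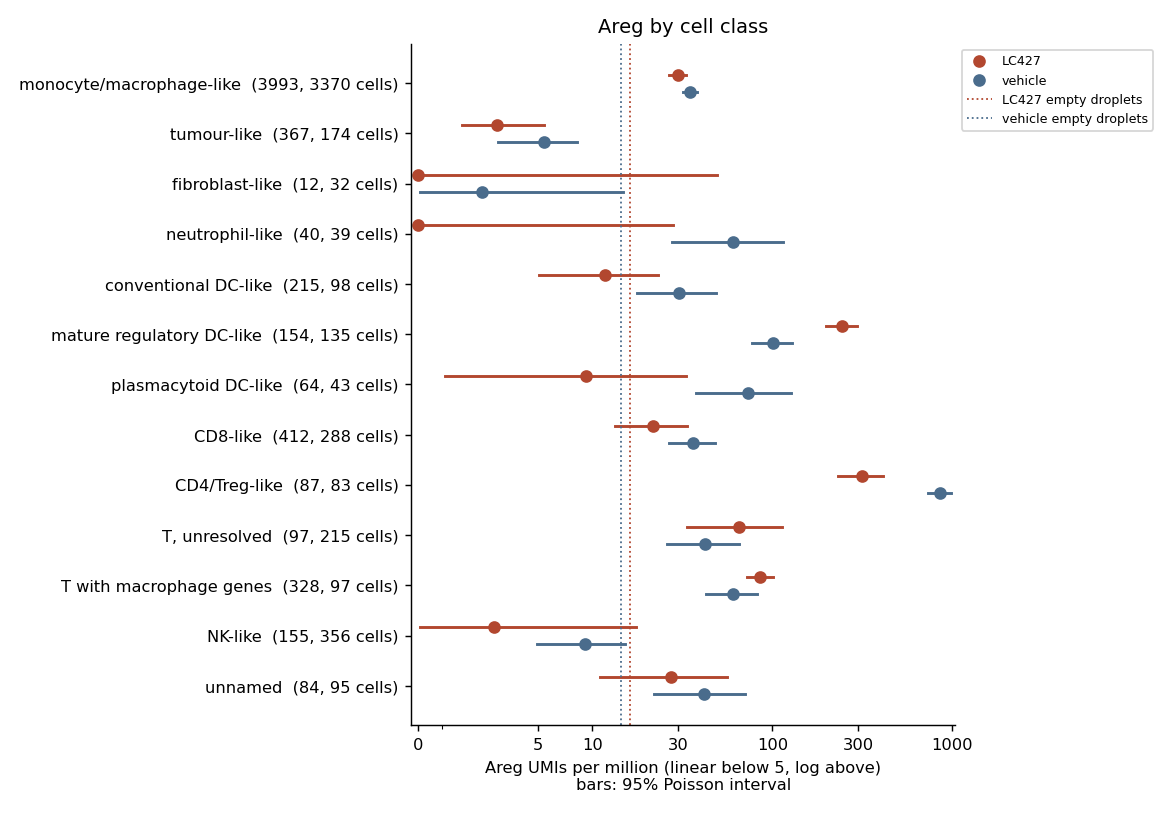
Areg in each cell class in CPM (x axis, linear below 5 and logarithmic above), with LC427 above vehicle, bars for the exact 95% Poisson interval and dotted lines for the empty droplets of each library. CD4/Treg-like cells are the highest class in both libraries (314 CPM with LC427 and 854 CPM with vehicle), and mature regulatory DC-like cells are higher with LC427 (244 CPM) than with vehicle (100.5 CPM).

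In monocyte/macrophage-like cells Areg was at 29.8 CPM (26.7 to 33.1) with LC427 and 34.9 CPM (32.0 to 38.0) with vehicle, a ratio of 0.854 (0.743 to 0.980), beside 0.134 for Hbegf in the same cells. Cluster 3 was its main macrophage source, with 97.2 CPM (82.6 to 114) with LC427 and 105 CPM (94.3 to 117) with vehicle, a ratio of 0.923 (0.759 to 1.12). The macrophage cluster with the most Hbegf UMIs thus had Areg intervals that overlapped between the libraries, beside a Hbegf ratio of 0.148. In the Plac8 monocyte cluster 10, Areg had no UMI in 236 LC427 cells and 19 UMIs in 4 of 140 vehicle cells, a ratio of at most 0.137. In cluster 4 it had 14.0 CPM with LC427 and 3.97 CPM with vehicle, from 11 LC427 and 12 vehicle UMIs, a level at or below that of empty droplets in both. After thinning, 28 of 3993 LC427 and 131 of 3370 vehicle macrophage-like cells had Hbegf, 62 LC427 and 57 vehicle cells had Areg, and 2 LC427 and 3 vehicle cells had both. Hbegf was seen in 3.23% of the Areg cells and 0.661% of the other cells with LC427, and in 5.26% of the Areg cells and 3.86% of the other cells with vehicle. These shares rest on 2 LC427 and 3 vehicle cells, at a depth of 1000 UMIs that misses most transcripts of a cell.

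Ereg was rare. It had 6 UMIs in 5 LC427 cells and 50 UMIs in 14 vehicle cells, a ratio of 0.144 (0.0504 to 0.336). Of the vehicle UMIs 41 were in 8 of 32 fibroblast-like cells, and 29 of those were in 2 cells, so the difference rests on a few cells. The 12 LC427 fibroblast-like cells had none, a ratio of at most 0.366, where 28.5% of the genes measured in that class were at least 1.5-fold lower. Their count of 0 allows a share of up to 25% of cells with a UMI. Macrophage-like cells had 6 UMIs with LC427 and 9 with vehicle, of which cluster 3 held 5 with LC427 and 8 with vehicle. Tumour-like cells had none in 367 LC427 cells or in 174 vehicle cells, which allows a detected UMI in up to 0.817% of LC427 and 1.72% of vehicle cells and does not bound the share that express the gene. Thinned to 1000 UMIs the ratio over all cells was 0.836, with an interval of 0.0606 to 11.5.

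Tgfa had 6 UMIs with LC427 and 13 with vehicle, each in a cell of its own, a ratio of 0.554 (0.173 to 1.56) that counting error alone leaves on either side of 1. Tumour-like cells held 5 UMIs with LC427 and 3 with vehicle, NK-like cells 1 with LC427 and 4 with vehicle, and unresolved T cells 0 with LC427 and 4 with vehicle. No macrophage-like cell of either library had one.

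The receptor gene Egfr had 9 UMIs with LC427 and 23 with vehicle, a ratio of 0.469 (0.191 to 1.05). Fibroblast-like cells held 4 of the LC427 and 18 of the vehicle UMIs. Their level was 53.1 CPM (14.5 to 136) with LC427 and 47.7 CPM (28.3 to 75.4) with vehicle, a ratio of 1.11 (0.274 to 3.38), and 4 of 12 LC427 and 12 of 32 vehicle cells had an Egfr UMI. None of these cells carried the endothelial genes Pecam1, Cdh5 or Kdr, and 5 vehicle cells had both Ereg and Egfr. The class itself had 12 cells with LC427 and 32 with vehicle, a number that the CD45 selection can set, since it should remove these cells. Egfr was hardly seen in tumour-like cells, with 1 UMI in 367 LC427 cells and none in 174 vehicle cells, despite medians of 10952 UMIs with LC427 and 21175.5 with vehicle. The count of 0 allows up to 1.72% of vehicle tumour-like cells with a UMI. Macrophage-like cells had 2 UMIs with LC427 and 1 with vehicle.

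Genes around the ligands were taken from 9 lists of 89 genes, of which 72 were measured in monocyte/macrophage-like cells. There 3 were at least 1.5-fold higher and 8 at least 1.5-fold lower in LC427, while 17.3% of all measured genes were past 1.5-fold, and 6.28% were lower. Among the other ligands of the family, 2 of 7 were measured. Nrg1, which encodes neuregulin 1, a ligand of ERBB3 and ERBB4, had 12.3 CPM with LC427 and 24.9 CPM with vehicle, a ratio of 0.493 (0.404 to 0.599). Nrg2 was at 7.0 CPM with LC427 and 4.14 CPM with vehicle. None of the 3 other receptor genes of the family reached 20 UMIs in these cells.

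Among the genes of ligand shedding 9 of 11 were measured, and 1 was higher and none lower in LC427. The main sheddase gene Adam17 had 95.5 CPM with LC427 and 95.2 CPM with vehicle, a ratio of 1.00 (0.927 to 1.09), and Adam10 a ratio of 1.35 (1.24 to 1.46). Adam19 was the exception, at 15.6 CPM with LC427 and 2.43 CPM with vehicle, a ratio of 6.40 (4.47 to 9.38). Of the 6 surface partners of the ligands none passed 1.5-fold, including Cd9, a tetraspanin that binds the HB-EGF precursor (0.935) and the heparan sulfate core protein gene Sdc4 (1.06). All 15 genes of receptor signalling were measured and none passed 1.5-fold.

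Some genes that ERK signalling is known to induce were at least 1.5-fold lower in LC427, where 6.28% of all measured genes were. The lists are short, and ERK signalling itself was not tested. Of the feedback inhibitors 1 of 12 was lower, Dusp5, which encodes an ERK phosphatase, with a ratio of 0.507 (0.462 to 0.557), while Dusp6 was at 1.40 (1.27 to 1.55). Of the ERK target genes 2 of 7 were lower, Egr1 at 0.533 (0.482 to 0.589) and Fosl1, with 6 LC427 and 29 vehicle UMIs, at 0.272 (0.0924 to 0.667). The median log2 ratio of that list was -0.51, and that of all genes 0.13. Other growth factor genes were lower in 4 of 13, namely Igf1 (0.228), Gdf15 (0.335), Vegfb (0.511) and Vegfa (0.532), and higher in 1, Hgf (1.52). None of the 8 dissociation stress genes passed 1.5-fold in either direction.

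In tumour-like cells, where the Hbegf levels overlapped, 73 of the listed genes were measured, with 3 at least 1.5-fold higher and 12 lower in LC427, against 8.41% higher and 10.3% lower of all genes. Btc, the betacellulin gene, had 14.2 CPM with LC427 and 17.4 CPM with vehicle, and Nrg1 had a ratio of 1.05 (0.769 to 1.43). The receptor gene Erbb2 was at 15.1 CPM in both libraries, a ratio of 0.996 (0.693 to 1.43). The tetraspanin genes Cd9, at 0.525 (0.492 to 0.561), and Cd81, at 0.532 (0.487 to 0.581), were lower, and the syndecan gene Sdc1 was higher at 1.68 (1.35 to 2.09). Of the ERK target genes 3 of 8 were lower, Ier3 (0.416), Fosl1 (0.581) and Phlda1 (0.635). Of the dissociation stress genes 3 of 7 were lower in the same cells, Hspa1b (0.473), Dnajb1 (0.499) and Fos (0.597), and their part in the ERK target counts was not tested. Vegfa (0.618), Vegfb (0.525) and 2 more of the 10 other growth factor genes measured were lower, and Pdgfc (1.65) and Socs4 (1.58) higher.

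The genes most like Hbegf over 36 points, 18 classes and macrophage clusters in each library, were Flrt2 (Pearson r of 0.783), Azin2 (0.764), Ak4 (0.725), Chst14 (0.724) and Gdf15 (0.719). Those most like Areg were the NF-κB inhibitor gene Nfkbia (0.819), the interleukin 7 receptor gene Il7r (0.807), Izumo1r (0.742), Cd4 (0.738) and Penk (0.719). The points of a library share its depth and free RNA, and clusters of a class share their class, so these values only describe the pattern. Ereg (Csta2, 0.778), Tgfa (Klra1, 0.760) and Egfr (Cxcl12, 0.686) have so few UMIs that their nearest genes are no finding.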

How the data were processed

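Each library came as the authors' deposited matrix of UMI counts, with all barcodes. Cell Ranger 3.0.1, Seurat 3 and the GRCm38 build are named in the submitters' processing notes, and Cell Ranger 4 per the file headers, with no record of which version made the counts. The authors' deposited tables hold, for each of their clusters, a mean count signal, a log2 fold change and an adjusted p-value. Only the mean counts were used here, and the fold changes and p-values of the authors were not.

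Barcodes with at least 1000 UMIs, 400 genes and at most 10% mitochondrial UMIs were called cells, 6328 for LC427 and 5245 for vehicle. Scrublet marked 0 doublets, which was not trusted. The highest-scoring 320 LC427 and 220 vehicle barcodes, 0.8% per 1000 cells, were left out instead. Both libraries were clustered together on 2000 variable genes without the members and listed genes, with 30 components, 20 neighbours and Leiden at resolution 1 (scanpy 1.11.5, leidenalg 0.10.2). Classes were named from fixed marker lists, by a rule written after clusters had been seen. Counts were summed per class and library, and levels are CPM of those sums. A gene counts as measured with 20 UMIs over both libraries, as higher or lower past 1.5-fold, and 0 counts are bounded at 3. The members and gene lists were chosen with earlier results of these data known. Levels of all members were computed in every class, and the text gives a part of them. List genes in macrophage-like and tumour-like cells were named up to 10 each way by the interval bound nearest 1, with 10 CPM in 1 library. Other list genes were named to show a list's range, after their values were seen. Likeness used log2(CPM + 10) of genes with 200 UMIs. The ratio and interval calculations were checked on simulated counts.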

Additional observations from a re-analysis of the deposited data

Results flagged for a closer look

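Members were looked at again where 2 cell classes, each with at least 20 UMIs, stood past 1.5-fold in opposite directions with intervals that exclude 1. No difference between classes was tested, since each group had 1 library. Areg was higher with LC427 in mature regulatory DC-like cells, with a log2 ratio above that of CD4/Treg-like cells by 2.73 and above that of conventional DC-like cells by 2.66. The mature regulatory DC-like side rests on 106 LC427 and 60 vehicle UMIs in few cells, where T markers were also higher with LC427. Among its cells without a T marker the ratio was smaller. The conventional DC-like side rests on 8 LC427 and 17 vehicle UMIs. Hbegf was higher with LC427 in CD8-like cells, with a log2 ratio above that of monocyte/macrophage-like cells by 4.40. It was above that of barcodes with both T and macrophage genes by 2.83. The CD8-like side of both Hbegf differences rests on 14 LC427 and 7 vehicle UMIs. Its levels were 15.3 CPM with LC427 and 5.38 CPM with vehicle, beside empty droplets at 10.1 CPM with LC427 and 14.6 CPM with vehicle. The Hbegf levels of CD8-like and macrophage-like cells were known when the genes were proposed, so their contrast repeats that reading and is no separate finding.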

How the results depend on the processing

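Of 169 alternative values, 148 stayed within the interval of the reported value or, for counts, within 1.5 times of it. Settings that change only clustering or class names leave values over all cells as they were, so those values could not move. Wide intervals, as for Tgfa, also leave little room to move out. The tally is therefore no measure of stability. Hbegf in macrophage-like cells kept its direction under 12 alternatives, at 0.109 to 0.177, the highest with cells thinned to 1000 UMIs. Thinning gave 0.836 for Ereg over all cells and 1.24 for Hbegf in tumour-like cells. Gating cells by their own markers gave 0.504 for Hbegf in tumour-like cells, 0.585 for Areg in CD4/Treg-like cells and 1.75 for Areg in mature regulatory DC-like cells. Areg in CD4/Treg-like cells was 0.639 with cells of 2000 or more UMIs and 0.51 with listed genes kept in clustering. Areg in NK-like cells, 1 LC427 and 14 vehicle UMIs, with a ratio of 0.345, had 1.73 and 1.72 at minimums of 500 and 2000 UMIs, 2.5 at resolution 0.5 and 1.44 when gated. Areg in CD8-like cells lay as low as 0.184 with listed genes kept. At least 2-fold, 4 listed genes were lower and 1 higher in macrophage-like cells. The causes of these shifts were not tested. At 2000 UMIs, resolution 2 and with each library clustered alone, no cluster was named tumour-like and the fibroblast-like class was larger (221 to 251 LC427 and 135 to 207 vehicle cells, against 12 LC427 and 32 vehicle cells), so no tumour-like value was had. The 169 values also cover 2 alternatives chosen after seeing the data. Tumour-like and fibroblast-like cells joined gave 0.996 for Hbegf, and 0.836 to 1.19 over 12 settings of it. Mature regulatory DC-like cells without a T marker gave 1.65 for Areg. No paired analysis was possible because each group had 1 library. Depth limits Ereg, Tgfa and Egfr, with 6 to 50 UMIs per library.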
